A study of Homo sapiens with 12 samples.

Results

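Transcripts of cohesin and condensin, the ring complexes that shape chromosomes, were followed in IMR5 cells after the nuclear export receptor XPO1 was inhibited or depleted. The 10 genes were taken by symbol: SMC1A, SMC3, RAD21, STAG1 and STAG2 of cohesin, and SMC2, SMC4, NCAPD2, NCAPG and NCAPH of condensin. All 10 were present among 20029 genes measured with selinexor and among 19610 genes measured with XPO1 knockdown, and all 10 passed the filter on low values in both (a mean of 10 or more over the 6 libraries). IMR5, a cell line established from human neuroblastoma, has an amplified MYCN gene, which all groups share.

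The study held 12 total RNA libraries in 4 groups of 3. In the first pair of groups, cells grew for 24 h in medium with selinexor at 100 nM, a drug that inhibits XPO1, or in medium with DMSO for a time that the labels do not give. In the second pair, cells were nucleofected with XPO1 siRNA or with control siRNA, and RNA was taken after 72 h. A single siRNA against XPO1 was analysed here, so effects of its sequence cannot be told apart from those of losing XPO1. Whether the 3 libraries of a group came from separate cultures is not in the labels. The p-values therefore reflect the spread between these libraries alone, and that spread may be technical.

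Cohesin is a ring closed by the ATPases SMC1A and SMC3 and the kleisin RAD21, to which either STAG1 or STAG2 binds. It holds sister chromatids together from DNA replication until anaphase and folds interphase chromatin into loops. Condensin is built on the ATPases SMC2 and SMC4 and compacts chromosomes in mitosis. The kleisin NCAPH and the HEAT repeat proteins NCAPD2 and NCAPG complete condensin I, while NCAPH2, NCAPD3 and NCAPG2 take their places in condensin II. Many genes of both complexes are transcribed most strongly in dividing cells.

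XPO1 itself checked the labels of the siRNA pair only. It had 4260, 4377 and 4397 normalized counts in the XPO1 siRNA libraries, against 18568, 18950 and 18908 in the control siRNA libraries (log2 fold change -2.11). With selinexor it had 15544, 22513 and 21165 normalized counts, against 17886, 18899 and 18357 with DMSO, and the groups overlapped (log2 fold change 0.09, limma adjusted p = 0.623). Without selinexor replicate 1 that value was 0.25, with a limma adjusted p of 0.00112. Libraries were estimated to hold 26.8 to 33.8 M reads with selinexor, 39.5 to 40.9 M with DMSO, 33.5 to 55.8 M with XPO1 siRNA and 40.6 to 54.0 M with control siRNA. Selinexor replicate 1 stood apart from its group: its log2 values correlated with those of the other selinexor libraries at r = 0.974 and 0.977, while the other 2 reached 0.991. Of the 7 adrenergic neuroblastoma markers, 6 were listed with selinexor and DMSO and all 7 in the knockdown table, with sums of 70318 to 80258 normalized counts with selinexor, 61199 to 63240 with DMSO, 84112 to 89367 with XPO1 siRNA and 71124 to 72891 with control siRNA. TH, the first enzyme of catecholamine synthesis, was at a mean of 5.50 normalized counts with XPO1 siRNA and 5.41 with control siRNA. The 3 listed of 7 leukocyte and endothelial markers, CD14, CDH5 and KDR, summed to at most 106 normalized counts in any library. The sums were 70.9 to 106 with selinexor and 45.6 to 47.8 with DMSO. In the siRNA pair they were 89.3 to 104 with XPO1 siRNA and 45.6 to 54.8 with control siRNA. CDH5 was called higher in both pairs (log2 fold change 1.04 with selinexor and 1.17 with XPO1 siRNA). KDR was called in neither pair, and CD14 was too low to be tested. PTPRC, CD3E, LYZ and PECAM1 were not among the listed genes. Schwann and fibroblast markers summed to 747 to 1742 normalized counts with selinexor, the highest in replicate 1, 762 to 864 with DMSO, 997 to 1014 with XPO1 siRNA and 1089 to 1329 with control siRNA.

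The promoters of the members are shown first. Sequences are from RefSeq on GRCh38.p14, from 250 bases before to 50 bases after the annotated start, 5′ to 3′ on the gene's strand, and 9 of the 10 members were matched. For SMC4 and SMC2, the first of 2 annotated starts is shown. Capitals mark the words searched on both strands. They were TTTGAA, known as the cell cycle genes homology region (CHR) and read as TTCAAA when it lies on the other strand, and its variant TTTAAA. The CCAAT box was searched as CCAAT, which reads ATTGG on the other strand. The E2F words were TTCCCGC with its relatives TTGGCGC and also TTCGCGC besides the word TTGCCGC. The CHR is known from promoters of late cell cycle genes, where the DREAM complex can bind it. The first 5 sequences belong to the condensin genes, and that of SMC3 is shown as the cohesin promoter that also held a CHR word.
NCAPG, chr4:17810729-17811028, plus strand: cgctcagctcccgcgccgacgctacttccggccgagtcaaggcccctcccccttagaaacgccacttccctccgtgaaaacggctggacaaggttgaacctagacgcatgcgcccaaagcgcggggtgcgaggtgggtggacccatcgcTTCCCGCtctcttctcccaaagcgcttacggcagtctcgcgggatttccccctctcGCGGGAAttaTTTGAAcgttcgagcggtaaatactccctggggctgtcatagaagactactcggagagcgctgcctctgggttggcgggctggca
NCAPD2, chr12:6493852-6494151, plus strand: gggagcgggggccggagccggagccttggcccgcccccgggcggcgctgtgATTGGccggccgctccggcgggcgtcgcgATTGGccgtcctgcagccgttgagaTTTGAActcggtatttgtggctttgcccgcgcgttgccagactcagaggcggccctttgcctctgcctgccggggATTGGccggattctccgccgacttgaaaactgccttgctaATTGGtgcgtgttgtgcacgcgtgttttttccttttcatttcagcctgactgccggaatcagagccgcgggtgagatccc
SMC4, chr3:160399400-160399699, plus strand: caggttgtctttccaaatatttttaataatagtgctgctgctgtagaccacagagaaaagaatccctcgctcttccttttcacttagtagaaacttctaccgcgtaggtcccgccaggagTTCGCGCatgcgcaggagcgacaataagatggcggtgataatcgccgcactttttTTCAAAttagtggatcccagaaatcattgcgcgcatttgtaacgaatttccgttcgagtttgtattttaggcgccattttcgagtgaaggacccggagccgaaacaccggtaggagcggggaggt
SMC2, chr9:104094059-104094358, plus strand: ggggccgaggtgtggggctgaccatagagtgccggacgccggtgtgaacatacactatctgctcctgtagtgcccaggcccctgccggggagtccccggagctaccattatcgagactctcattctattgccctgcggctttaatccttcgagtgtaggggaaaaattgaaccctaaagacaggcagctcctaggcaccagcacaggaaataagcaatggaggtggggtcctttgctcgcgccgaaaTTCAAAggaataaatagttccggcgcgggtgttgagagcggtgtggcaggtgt
NCAPH, chr2:96335516-96335815, plus strand: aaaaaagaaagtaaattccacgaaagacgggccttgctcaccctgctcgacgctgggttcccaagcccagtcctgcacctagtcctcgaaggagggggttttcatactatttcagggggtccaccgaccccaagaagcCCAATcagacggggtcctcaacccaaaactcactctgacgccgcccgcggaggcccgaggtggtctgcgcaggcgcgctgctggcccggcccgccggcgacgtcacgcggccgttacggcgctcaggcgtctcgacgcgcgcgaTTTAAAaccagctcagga
SMC3, chr10:110567445-110567744, plus strand: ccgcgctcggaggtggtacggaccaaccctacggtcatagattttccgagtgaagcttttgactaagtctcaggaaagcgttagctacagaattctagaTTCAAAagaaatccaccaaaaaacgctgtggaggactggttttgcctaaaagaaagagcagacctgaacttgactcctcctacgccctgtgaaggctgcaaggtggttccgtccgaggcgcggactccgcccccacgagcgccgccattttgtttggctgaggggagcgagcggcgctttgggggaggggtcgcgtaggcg

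CHR words were found in the windows of 4 of the 5 condensin genes, namely NCAPG, NCAPD2, SMC4 and SMC2, and of 1 of the 4 cohesin genes with a sequence, SMC3. Counted by window, that was 4 of 7 condensin windows and 1 of 7 cohesin windows, and TTTGAA was in 15.2% of all 35116 windows of the RefSeq table, read on either strand. Counted from 0 at the start base, the word took positions -35 to -30 in NCAPG, next to an E2F word at -45 to -39. It took positions -75 to -70 in SMC4, -145 to -140 in NCAPD2 and -151 to -146 in SMC3. In SMC2 it ran across the annotated start itself, from -3 to 2. The windows of the second annotated starts of SMC4 and SMC2 held no CHR word. NCAPH had no TTTGAA, but the variant TTTAAA took positions 32 to 37, and 12.2% of all windows held that variant. CCAAT words were in 2 of 7 condensin windows, with 4 words in that of NCAPD2, and in 3 of 7 cohesin windows, against 34.6% of all windows. E2F words were in 2 of 7 condensin windows and 3 of 7 cohesin windows, against 13.0% of all windows. By gene, that was 2 of 5 condensin genes and 3 of 4 cohesin genes. No match shared a base with another. These are matches of letters, not sites shown to be bound, and their part in the members' change was not tested.

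**Figure D1:**
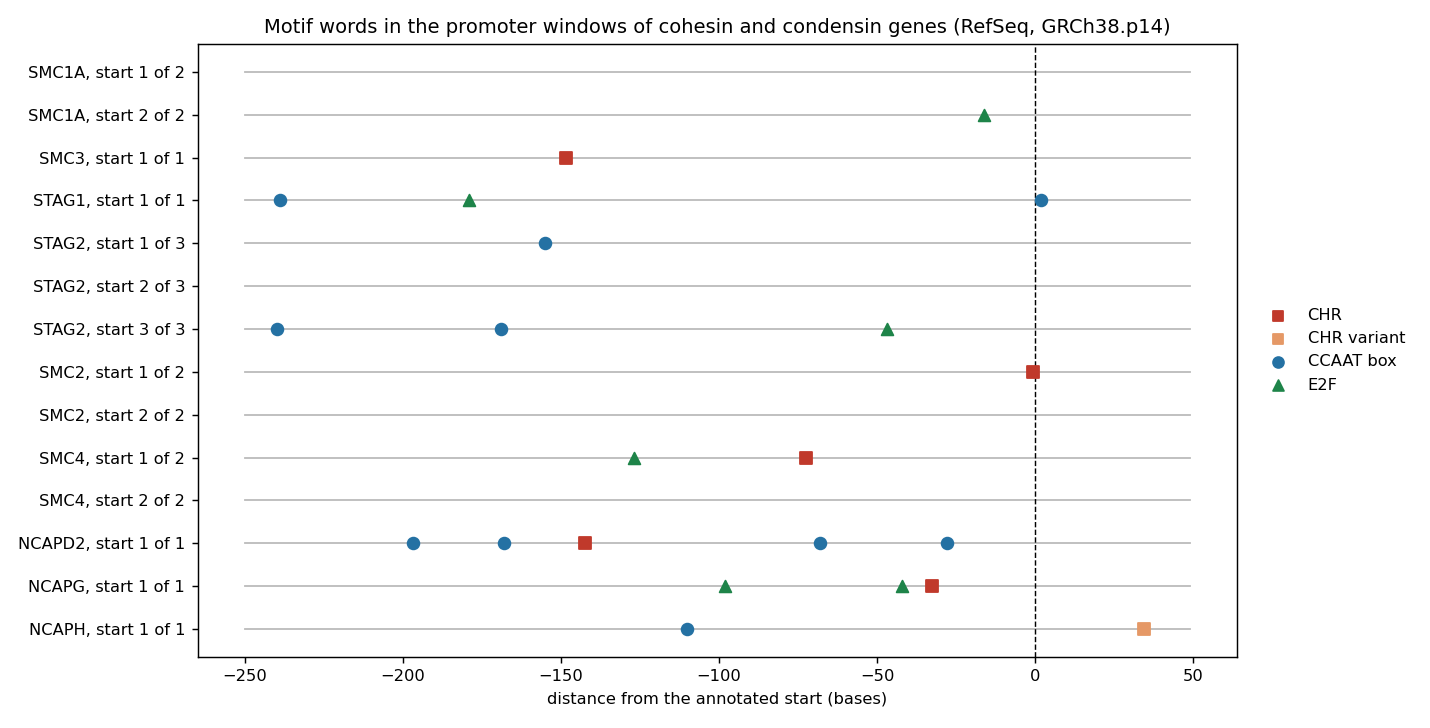
Positions of the searched words in each RefSeq promoter window of 9 member genes, with the distance from the annotated start in bases on the horizontal axis and a row for each annotated start. CHR words (red squares) appear in the rows of SMC3, SMC2, SMC4, NCAPD2 and NCAPG, and the CHR variant (orange square) appears in NCAPH after its start.

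Every member of both complexes was lower with selinexor, and the falls of the condensin genes were larger in size than those of the cohesin genes, with no overlap between the ranges. All 10 genes passed the limma test as lower with selinexor than with DMSO, where 26.3% of all 18128 genes tested were called lower. In all 10, each selinexor library lay below each DMSO library, which held for 32.9% of genes. All fold changes were taken after adding 1 to each value, so those of weakly expressed genes are understated. The condensin genes had log2 fold changes from -2.12 to -1.18 with a median of -1.47, and the cohesin genes from -1.04 to -0.62 with a median of -0.76, beside a median of -0.01 over all genes. A log2 fold change of -1 or lower was reached by all 5 condensin genes, by STAG1 alone of cohesin, and by 5.82% of genes. In bulk RNA, fewer cells in the stages of the cell cycle that express these genes and less RNA per cell cannot be told apart. The 10 markers of cells in G2 and mitosis were lower too, all 10 of them, with a summed level of 39085 to 41123 normalized counts with selinexor and 107290 to 110836 with DMSO. Their part in the fall of the members was not tested. RNAs of the signal recognition particle, RN7SL, took 12.6% to 16.0% of values with selinexor and 9.40% to 9.72% with DMSO. Its part in the members' values was not tested, and the falls at equal totals are given with those of the knockdown.

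**Figure D2:**
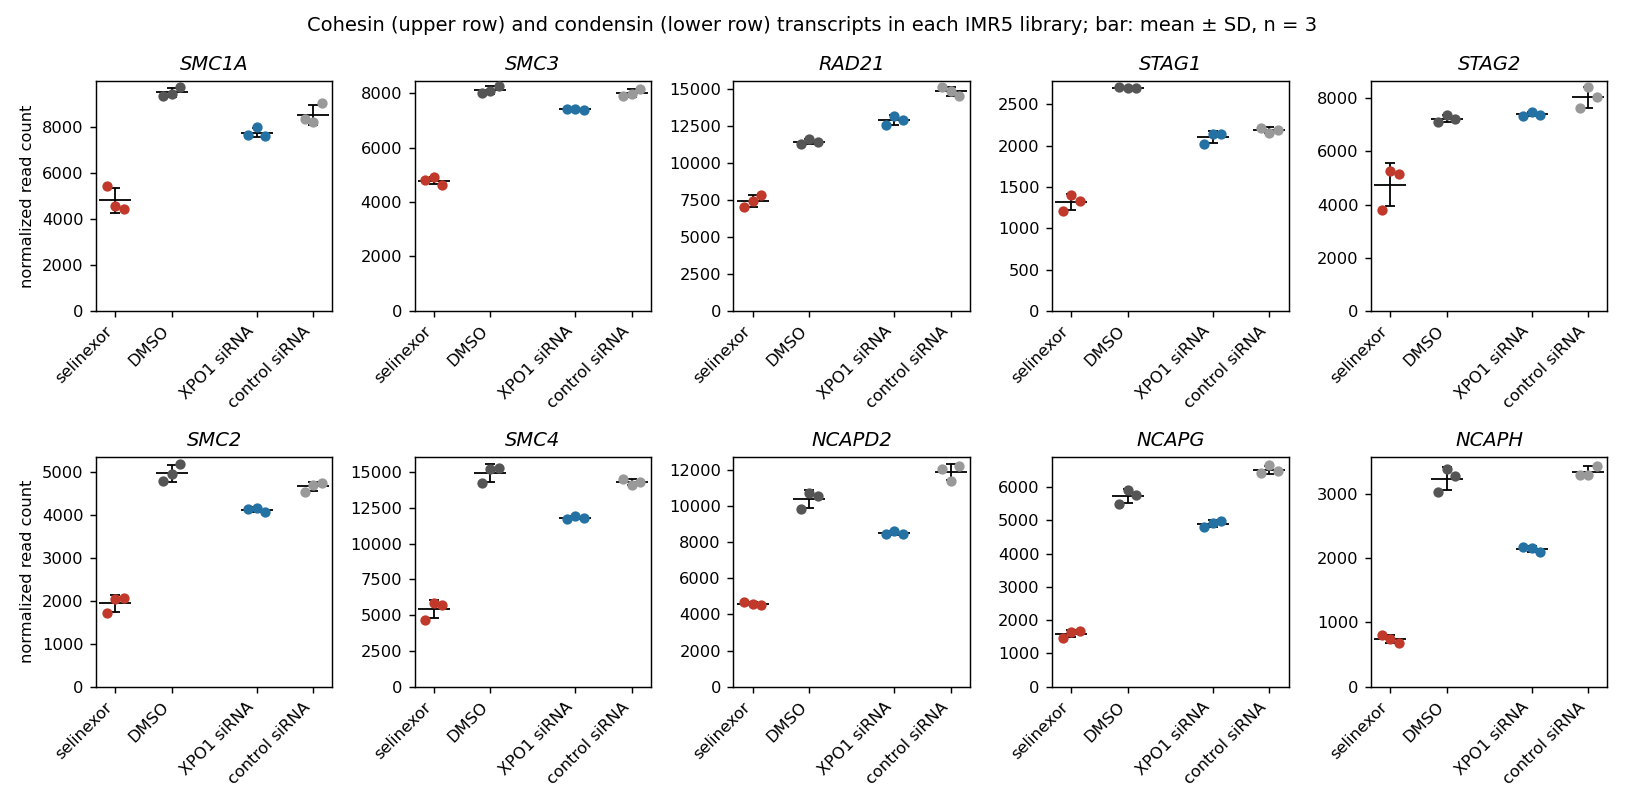
Normalized read counts of each member (vertical axis, starting at 0) in each of the 12 libraries, with points for libraries and bars for the mean ± SD of 3. Every selinexor point lies below every DMSO point in all 10 panels, and every XPO1 siRNA point lies below every control siRNA point by a smaller distance; the selinexor pair and the siRNA pair were normalized separately.

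NCAPH, the kleisin that closes the condensin I ring, fell most. It had 799, 743 and 686 normalized counts with selinexor, against 3034, 3393 and 3279 with DMSO. The groups were far apart relative to their spread (743 ± 56.4 with selinexor and 3236 ± 183 with DMSO, SD, n = 3 each). That left 23.0% of the DMSO level, or -2.12 on the log2 scale (95% interval -2.33 to -1.91, limma adjusted p = 1.38e-06), and only 0.772% of genes tested were lowered more. Its lowest value rested on about 629 estimated reads. The gene lies at chr2:97001525-97039584 on the plus strand (hg19, as are all gene coordinates here).

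NCAPG, a HEAT repeat subunit of condensin I at chr4:17812525-17846486 (plus strand), was next. Its values were 1463, 1652 and 1666 normalized counts with selinexor, against 5507, 5925 and 5764 with DMSO, and the lowest selinexor library was replicate 1. The log2 fold change was -1.85 (SE 0.08, limma adjusted p = 1.86e-06), which left 27.8% of the DMSO level. NCAPD2, the other HEAT repeat subunit, at chr12:6602522-6641122 (plus strand), fell least of the condensin genes. It had 4676, 4553 and 4523 normalized counts with selinexor, against 9834, 10746 and 10585 with DMSO. The coefficient of variation of its selinexor libraries was 1.77%, and the log2 fold change was -1.18 (SE 0.07, limma adjusted p = 8.89e-06).

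SMC4 and SMC2 are the paired ATPases of both condensins. SMC4, at chr3:160117062-160152751 (plus strand), had 4686, 5850 and 5693 normalized counts with selinexor, against 14223, 15261 and 15311 with DMSO. The drop was to 36.1% of the DMSO level, or -1.47 on the log2 scale (SE 0.10, limma adjusted p = 1.31e-05). SMC2, at chr9:106856541-106903699 (plus strand), had 1716, 2049 and 2055 normalized counts with selinexor, against 4785, 4955 and 5184 with DMSO. Its log2 fold change was -1.36 (SE 0.09, limma adjusted p = 1.41e-05). In both genes replicate 1 was the lowest of the selinexor libraries, and the groups did not come near each other.

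SMC1A, an ATPase of the cohesin ring at chrX:53401070-53449678 (minus strand), fell more than SMC3 and RAD21. It had 5425, 4553 and 4419 normalized counts with selinexor, against 9342, 9401 and 9701 with DMSO. Here replicate 1 was the highest of the selinexor libraries. The log2 fold change was -0.99 (SE 0.09, limma adjusted p = 8.05e-05), about 50.4% of the DMSO level. SMC3, its ATPase partner at chr10:112327449-112364395 (plus strand), had 4817, 4908 and 4637 normalized counts with selinexor, against 7995, 8078 and 8262 with DMSO (log2 fold change -0.76, SE 0.07, limma adjusted p = 7.45e-05). RAD21, the kleisin that separase cuts at anaphase, at chr8:117858174-117887106 (minus strand), had 7036, 7426 and 7841 normalized counts with selinexor, against 11299, 11615 and 11451 with DMSO. Its log2 fold change was -0.62 (SE 0.08, limma adjusted p = 0.000297), which left 64.8% of the DMSO level.

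STAG1 and STAG2 are paralogs that take the same place on the ring, and reads from stretches they share could be split between them by the authors' counting. STAG1, at chr3:136055077-136471221 (minus strand), had 1215, 1409 and 1330 normalized counts with selinexor, against 2709, 2702 and 2702 with DMSO. The log2 fold change was -1.04 (SE 0.08, limma adjusted p = 3.28e-05), close to that of SMC1A. STAG2, at chrX:123094062-123556515 (plus strand), had 3810, 5273 and 5155 normalized counts with selinexor, against 7085, 7362 and 7235 with DMSO. Replicate 1 lay well under the other selinexor libraries, and the coefficient of variation of 17.1% was the highest of any member in any group. At -0.62 on the log2 scale (SE 0.13, limma adjusted p = 0.00394), its fall was close to that of RAD21. Without selinexor replicate 2 the order of the pair turned, at -0.71 for STAG2 and -0.62 for RAD21. The order also turned without selinexor replicate 3 (-0.69 and -0.66) and, barely, without DMSO replicate 1 (-0.636 and -0.635). Without selinexor replicate 1, STAG2 stood at -0.47, SMC1A at -1.08, NCAPH at -2.18 and NCAPG at -1.79. All 10 members were still called lower without that library, where 33.9% of genes were.

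**Figure D3:**
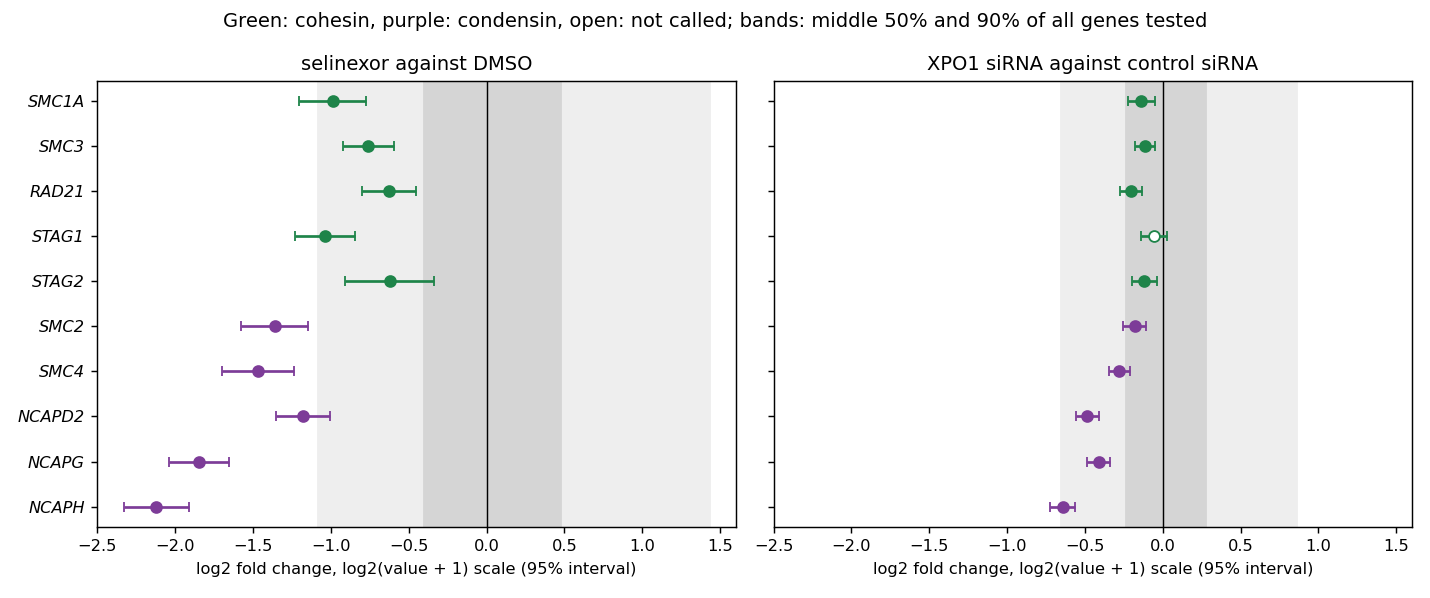
Log2 fold changes on the log2(value + 1) scale (horizontal axis) for each member, with points for the limma estimate and bars for its 95% interval; the dark and light bands hold the middle 50% and 90% of all genes tested. With selinexor the 5 condensin genes (purple) lie left of the light band, whose left edge is at -1.08, and with XPO1 siRNA NCAPH lies at -0.64 near that edge, at -0.65.

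XPO1 knockdown gave the same direction at a smaller size. Condensin genes were called lower in 5 of 5 cases and cohesin genes in 4 of 5, so 9 of 10 members were lower with XPO1 siRNA than with control siRNA, where 28.6% of all 17616 genes tested were called lower. In all 10 members each XPO1 siRNA library lay below each control siRNA library, which held for 31.2% of genes. The condensin genes had log2 fold changes from -0.64 to -0.18 (median -0.41) and the cohesin genes from -0.20 to -0.06 (median -0.12), beside a median of 0.00 over all genes. Here the ranges overlapped, as RAD21 at -0.20 fell more than SMC2 at -0.18. Of the G2 and mitosis markers, 9 of 10 were lower and CENPF was higher (log2 fold change 0.21, a call lost in 4 of 14 alternatives). The marker sum was 74504 to 78492 normalized counts with XPO1 siRNA and 80338 to 89018 with control siRNA. CENPF made up a large part of it. That gene had 43403, 47158 and 46677 normalized counts with XPO1 siRNA, against 34906, 40324 and 44109 with control siRNA. The sum therefore understates the fall of the other markers, and the median log2 fold change of the 10 was -0.51. The markers' part in the members' change was not tested.

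NCAPH again fell most, with 2167, 2163 and 2097 normalized counts with XPO1 siRNA, against 3296, 3300 and 3440 with control siRNA. That was 64.1% of the control siRNA level (log2 fold change -0.64, 95% interval -0.72 to -0.56, limma adjusted p = 1.11e-08). NCAPD2 had 8456, 8614 and 8434 normalized counts with XPO1 siRNA, against 12064, 11393 and 12244 with control siRNA (log2 fold change -0.48, SE 0.03, limma adjusted p = 7.65e-08). It was thus the condensin gene lowered least by selinexor and the next after NCAPH with XPO1 siRNA. NCAPG had 4795, 4923 and 4998 normalized counts with XPO1 siRNA, against 6436, 6657 and 6481 with control siRNA (log2 fold change -0.41, SE 0.03, limma adjusted p = 2.59e-07). The ATPases moved less: SMC4 had 11723, 11948 and 11774 normalized counts with XPO1 siRNA, against 14527, 14142 and 14308 with control siRNA (log2 fold change -0.28, limma adjusted p = 4.15e-06). SMC2 had 4144, 4163 and 4060 normalized counts with XPO1 siRNA, against 4541, 4704 and 4756 with control siRNA (log2 fold change -0.18, limma adjusted p = 0.000586).

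The cohesin changes with XPO1 siRNA were small, and most of their calls were lost at equal totals. Rescaled by a trimmed mean of log ratios, SMC1A, SMC3, RAD21 and STAG2 stayed lower (median of the 5 genes -0.11), among 4980 genes called lower. RAD21 had 12559, 13212 and 12909 normalized counts with XPO1 siRNA, against 15141, 14861 and 14556 with control siRNA (log2 fold change -0.20, SE 0.03, limma adjusted p = 0.000132). It was the only cohesin member still called lower when the libraries were rescaled to equal totals (log2 fold change -0.11, limma adjusted p = 0.0135). SMC1A had 7638, 7960 and 7586 normalized counts with XPO1 siRNA, against 8310, 8211 and 9009 with control siRNA (log2 fold change -0.14, limma adjusted p = 0.0093, and 0.298 at equal totals). SMC3 had 7404, 7414 and 7379 normalized counts with XPO1 siRNA, against 7893, 7963 and 8169 with control siRNA (log2 fold change -0.11, limma adjusted p = 0.00692, and 0.521 at equal totals). The 3 control siRNA values of SMC1A were spread by 5.11% (coefficient of variation), and without control siRNA replicate 3 the limma adjusted p of SMC1A was 0.0526. STAG2 had 7329, 7476 and 7374 normalized counts with XPO1 siRNA, against 7640, 8412 and 8032 with control siRNA (log2 fold change -0.12, limma adjusted p = 0.0167, and 0.557 at equal totals). It also missed the threshold without control siRNA replicate 2 (limma adjusted p = 0.0643) and without XPO1 siRNA replicate 3 (limma adjusted p = 0.0524). STAG1 was not called: it had 2026, 2147 and 2145 normalized counts with XPO1 siRNA, against 2218, 2153 and 2195 with control siRNA (log2 fold change -0.06, 95% interval -0.14 to 0.03, limma adjusted p = 0.257). Its sign turned at equal totals, to 0.03.

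Rescaled to equal totals, all 5 condensin genes stayed lower with XPO1 siRNA, with a median of -0.32, while 20.7% of genes were called lower. That rescaling raised the share of higher calls among all calls to 62.4%, against 47.5% as deposited. RN7SL took 10.8% to 12.4% of values with XPO1 siRNA and 12.6% to 13.1% with control siRNA. With selinexor, all 10 members stayed lower at equal totals, with medians of -1.39 for condensin and -0.68 for cohesin, while 23.0% of genes were called lower.

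The fall after selinexor was larger than that after XPO1 siRNA for each of the 10 members, by a limma test of the difference of the effects, where 20.2% of 17332 genes had a lower effect with selinexor. Dose, time and the way of delivery differ between these effects as well as the agent, and each table was normalized on its own, so only differences formed within a table were compared. The gap was wide for NCAPH, at -1.48 log2 units (95% interval -1.68 to -1.28, limma adjusted p = 2.40e-07), and for NCAPG, at -1.44 (95% interval -1.62 to -1.25, limma adjusted p = 1.32e-07), with overlapping intervals. SMC4 followed at -1.19, SMC2 at -1.18, STAG1 at -0.98 and SMC1A at -0.85. NCAPD2 had the smallest gap of the condensin genes, at -0.69, next to SMC3 at -0.65. STAG2, at -0.50 (limma adjusted p = 0.0145), and RAD21, at -0.42 (95% interval -0.59 to -0.26, limma adjusted p = 0.00112), differed least. Over all genes the median of this difference was -0.07.

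Ratios between subunits within a library do not depend on how that library was scaled, and they are given as a description with no test. The mean log2 level of the condensin genes minus that of the cohesin genes was -0.85, -0.84 and -0.84 with selinexor, against -0.11, -0.02 and -0.04 with DMSO. With XPO1 siRNA it was -0.26, -0.29 and -0.29, against 0.00, -0.02 and 0.00 with control siRNA. Condensin was thus lower relative to cohesin in every selinexor library than in any DMSO library, and in every XPO1 siRNA library than in any control siRNA library. NCAPH over NCAPD2, 2 subunits of condensin I, stood at log2 ratios of -2.55, -2.61 and -2.72 with selinexor, against -1.70, -1.66 and -1.69 with DMSO. The same ratio was -1.96, -1.99 and -2.01 with XPO1 siRNA, against -1.87, -1.79 and -1.83 with control siRNA. NCAPH was thus lower relative to NCAPD2 in both pairs, without overlap.

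STAG2 was higher relative to STAG1 with selinexor than with DMSO, and the groups did not overlap. The ratio was 3.13, 3.74 and 3.87 with selinexor, against 2.62, 2.72 and 2.68 with DMSO. Selinexor replicate 1, with its low STAG2 value, lay nearest to DMSO. With XPO1 siRNA the ratio was 3.62, 3.48 and 3.44, against 3.44, 3.91 and 3.66 with control siRNA, and the groups overlapped. Every control siRNA library thus lay above every DMSO library too, and the selinexor ratios of 3.74 and 3.87 were within the control siRNA range. The cause of that difference between the controls was not tested. SMC4 over SMC2 was slightly lower in both pairs, at 2.73, 2.85 and 2.77 with selinexor, against 2.97, 3.08 and 2.95 with DMSO. With XPO1 siRNA that ratio was 2.83, 2.87 and 2.90, against 3.20, 3.01 and 3.01 with control siRNA.

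**Figure D4:**
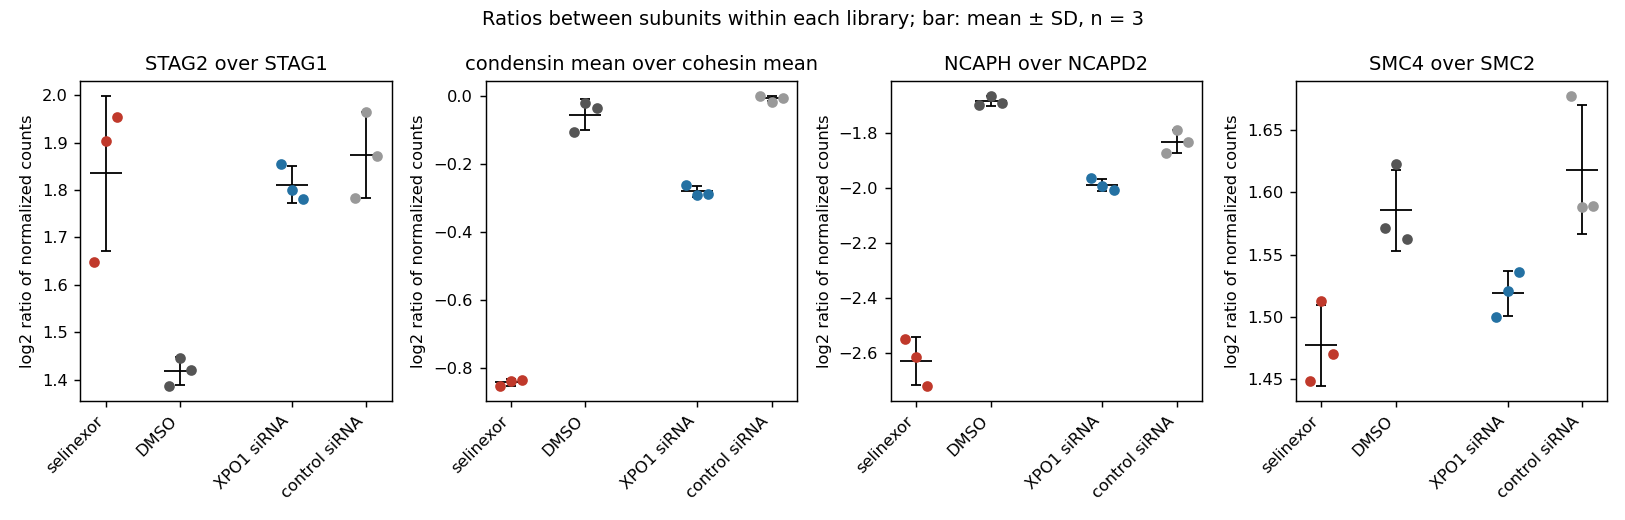
Log2 ratios of normalized counts within each library (vertical axes, which do not start at 0), with points for libraries and bars for the mean ± SD of 3. The condensin over cohesin ratio is near -0.84 in the selinexor libraries and near -0.28 in the XPO1 siRNA libraries, below DMSO and control siRNA, while STAG2 over STAG1 is above DMSO in all 3 selinexor libraries.

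Levels of different genes were compared only per kilobase of the longest protein-coding transcript in GENCODE 29. With selinexor RAD21 led at 1983 ± 107 normalized counts per kb, followed by SMC3 at 1164 ± 33.5 and SMC4 at 989 ± 116 (SD, n = 3 each). The lowest were SMC2 at 324 ± 32.4, NCAPH at 252 ± 19.1 and STAG1 at 218 ± 16.1, and the libraries of STAG2 and both SMC4 and NCAPD2, of NCAPG and SMC2, and of NCAPH and STAG1 overlapped. With DMSO RAD21 also led, at 3056 ± 42.1, then SMC4 at 2729 ± 112, SMC3 at 1972 ± 33.2 and NCAPD2 at 1872 ± 87.8. STAG1 was last there as well, at 447 ± 0.667, and NCAPG at 1230 ± 45.2 and STAG2 at 1196 ± 22.9 overlapped. NCAPH was seventh with DMSO at 1096 ± 62.1 and ninth with selinexor. In the siRNA libraries the order began with RAD21 and SMC4 and ended with SMC2 and STAG1. Divided by the length of all exons instead, SMC3 and not RAD21 led with DMSO, NCAPD2 stood above SMC4 with selinexor, and SMC3 was second to RAD21 in both siRNA groups.

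The other genes of these pathways were taken from 7 lists with 37 genes, of which 35 were listed and tested in each table. With selinexor 26 of 35 were lower and 3 higher, with a median log2 fold change of -0.72. Of all genes, 26.3% were called lower and 22.9% higher there. With XPO1 siRNA 23 of 35 were lower and 4 higher, with a median of -0.22, while 28.6% of all genes were called lower and 25.9% higher. The counts for each list below are to be read beside these shares. At equal totals the XPO1 siRNA counts were 18 lower and 6 higher, with a median of -0.13. Over all genes that scaling called 20.7% lower and 34.4% higher, with a median of 0.09. The subunits particular to condensin II were all lower in both: NCAPD3 by -1.52 with selinexor and -0.59 with XPO1 siRNA, NCAPG2 by -1.44 and -0.45, and NCAPH2 by -1.01 and -0.25 (log2 fold changes, each called by limma). With XPO1 siRNA they lay within the range of the 5 condensin members, and with selinexor NCAPH2 fell less than any of those 5.

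Genes that govern cohesin at the replication fork and at anaphase included the largest fall of these lists, that of ESCO2. ESCO2, which acetylates SMC3 in S phase, had 185, 290 and 302 normalized counts with selinexor, against 2037, 2090 and 2093 with DMSO (log2 fold change -3.03, limma adjusted p = 5.68e-06). With XPO1 siRNA ESCO2 had 1220, 1241 and 1308 normalized counts, against 2346, 2508 and 2340 with control siRNA (log2 fold change -0.93, limma adjusted p = 1.89e-09). The list of cohesin acetylation and replication genes was lower in 5 of 7 with selinexor and 4 of 7 with XPO1 siRNA, where equal totals left 2 lower, ESCO2 and DSCC1, and 1 higher, ESCO1. DSCC1, of the alternative clamp loader, changed by -2.57 with selinexor and -0.79 with XPO1 siRNA. The helicase gene DDX11 was lower with selinexor (-1.02). CHTF18, a clamp loader partner of DSCC1, was lower in both, at -0.74 with selinexor and -0.22 with XPO1 siRNA. The XPO1 siRNA call of CHTF18 was lost at equal totals. All 4 genes of cohesin protection and cleavage were lower in both. With selinexor, ESPL1, which encodes separase, stood at -2.16, and the shugoshin genes SGOL2 and SGOL1 at -2.08 and -1.79. With XPO1 siRNA, ESPL1 stood at -0.57, PTTG1, which encodes the separase inhibitor securin, at -0.56, and SGOL2 at -0.49.

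Loading and release genes were mixed, with 4 of 6 lower and 1 higher with selinexor and 3 of 6 lower and 2 higher with XPO1 siRNA. CDCA5, which encodes sororin, the protein that keeps cohesin on replicated chromatin, had 594, 587 and 487 normalized counts with selinexor, against 3117, 3292 and 3216 with DMSO (log2 fold change -2.53, limma adjusted p = 8.24e-07). With XPO1 siRNA CDCA5 had 2042, 1984 and 2006 normalized counts, against 3351, 3328 and 3386 with control siRNA (log2 fold change -0.74, limma adjusted p = 1.71e-09). PDS5A, a regulator of cohesin release, was lower in both (-0.71 with selinexor and -0.21 with XPO1 siRNA), and its relative PDS5B was -0.48 with selinexor. MAU2, a subunit of the cohesin loader, was higher with XPO1 siRNA, at 2304, 2169 and 2213 normalized counts, against 1553, 1499 and 1736 with control siRNA (log2 fold change 0.48, limma adjusted p = 4.62e-06). NIPBL, the other loader subunit, was named after its values were seen: it was called higher in both, by 0.29 with selinexor and 0.27 with XPO1 siRNA. With selinexor the NIPBL call was lost in 5 of 14 alternatives, namely without the intensity trend, without each DMSO library in turn and without selinexor replicate 3, with limma adjusted p up to 0.124.

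STAG3, the STAG gene of meiotic cohesin, was higher in both. It had 285, 202 and 199 normalized counts with selinexor, against 111, 67.2 and 94.6 with DMSO (log2 fold change 1.33, limma adjusted p = 0.00132). With XPO1 siRNA STAG3 had 90.9, 84.8 and 98.7 normalized counts, against 63.9, 68.2 and 53.3 with control siRNA (log2 fold change 0.56, limma adjusted p = 0.00661). The groups did not overlap in either pair. REC8, the other meiotic gene listed, was called lower with XPO1 siRNA (-0.14, not called at equal totals) and was not called with selinexor.

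The related SMC5 and SMC6 complex with SMCHD1 was lower in 6 of 7 genes with selinexor and 5 of 7 with XPO1 siRNA. With selinexor the named genes were SMCHD1, an SMC protein of the inactive X chromosome, at -0.94, SMC6 at -0.88 and NSMCE4A at -0.64. With XPO1 siRNA they were NSMCE2 at -0.41, NSMCE1 at -0.39 and SMC6 at -0.22. Among 6 partners in chromosome architecture, 4 were lower and 1 higher with selinexor, and 3 were lower and 1 higher with XPO1 siRNA. TOP2A, the topoisomerase of dividing cells, was at -1.57 with selinexor and -0.30 with XPO1 siRNA, and the chromokinesin gene KIF4A at -1.40 and -0.31. MKI67, a coat protein of mitotic chromosomes, was at -1.45 with selinexor. TOP2B, the other topoisomerase gene of the list, was the 1 higher gene in both, at 0.23 with XPO1 siRNA and 0.24 with selinexor. With selinexor 6 of 14 alternatives lost the call, the same ones as for NIPBL and the replicate block (limma adjusted p up to 0.110). Without selinexor replicate 1 the counts of these 7 lists were the same, except that 5 of 6 architecture partners were lower. Of all genes, 33.9% were then called lower and 28.2% higher.

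**Figure D5:**
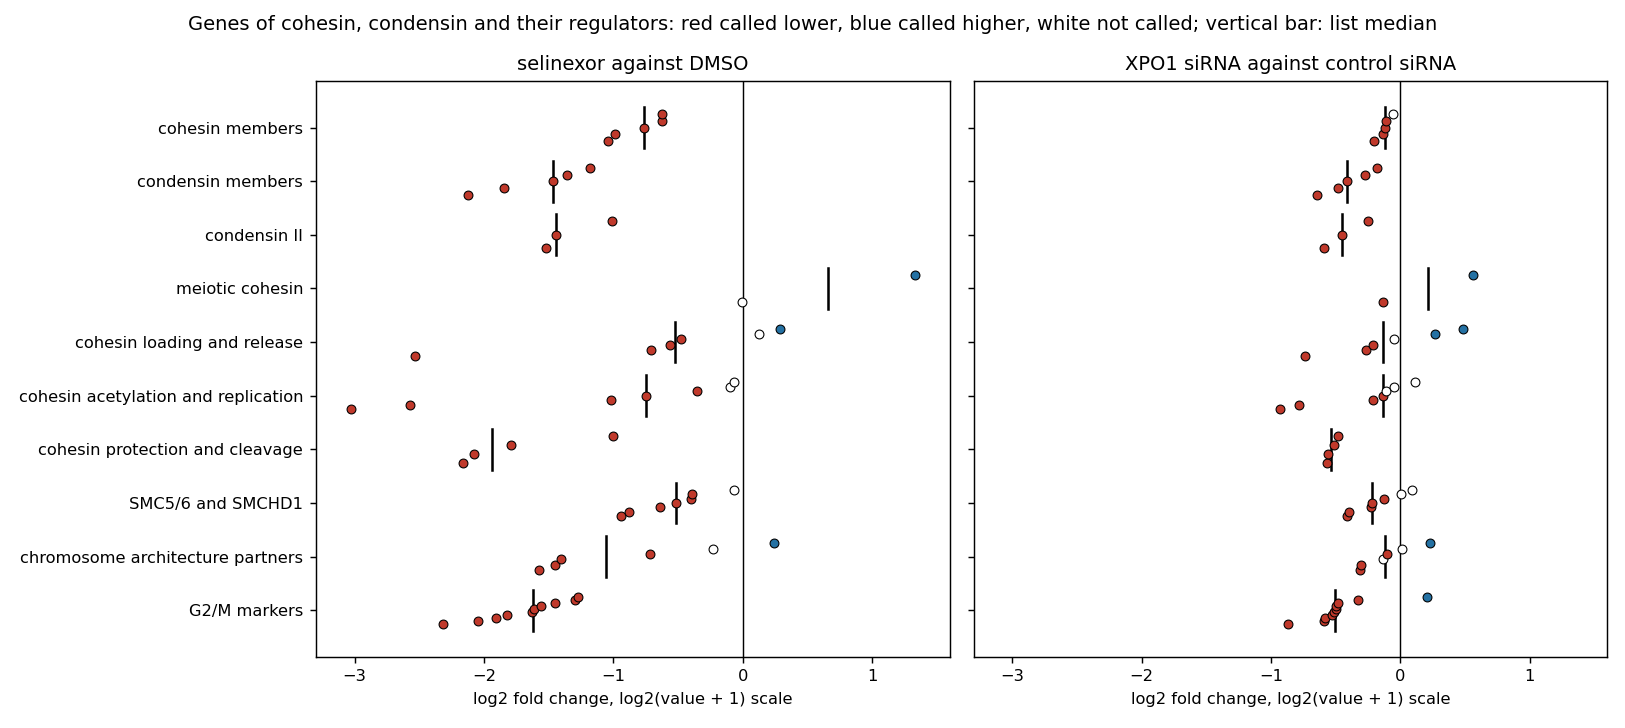
Log2 fold changes on the log2(value + 1) scale (horizontal axis) of every tested gene in the member and pathway lists and in the G2 and mitosis markers, a point for each gene, with a vertical bar at the median of each list. With selinexor the medians of condensin (-1.47), cohesin protection and cleavage (-1.94) and the G2 and mitosis markers (-1.62) lie furthest left, and with XPO1 siRNA the same lists have medians of -0.41, -0.54 and -0.51.

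Likeness between genes was measured over the 12 libraries as Pearson's r of log2 values, each set against the DMSO or control siRNA mean of its own table. The libraries fall into groups, so r mostly carries the group differences, and it is given as a description. Between members, r ran from 0.844 for SMC1A and STAG2 to 0.997 for SMC4 and SMC2. STAG2 was the member least like the rest, and SMC4 and NCAPG reached 0.997 as well. Among 12361 genes with a mean of 100 or more in both tables, the nearest to NCAPH was CDCA5 (r = 0.999), and the nearest to NCAPG was KIF15, a mitotic kinesin gene (r = 0.999). SMC2 was nearest to the kinetochore gene NDC80 (r = 0.999), SMC4 to TMPO, which encodes a protein of the inner nuclear envelope (r = 0.999), and NCAPD2 to the histone gene HIST1H2BM (r = 0.998). Of the cohesin genes, SMC3 was nearest to the spindle gene SPAG5 (r = 0.999), RAD21 to the DNA polymerase gene POLE2 (r = 0.997) and STAG1 to the centromere gene CENPO (r = 0.998). STAG2 was nearest to the decapping enzyme gene DCP2 (r = 0.999), and SMC1A to RP11-424C20.2 (r = 0.998). Between 593 and 1324 genes reached r of 0.95 or more with a given member.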

How the data were processed

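Strand-specific total RNA libraries of IMR5 cells were grouped by the sample titles. The tools named per the submitters' processing notes are DESeq2, Partek and STAR 2.7.3a, and the build is hg19. Neither the annotation nor whether counting used strand is given in the sources used here. Both tables, as deposited, hold a normalized signal. Steps in their low values fit read counts per gene that the authors scaled by a factor for each library, in the selinexor and knockdown tables separately. Of the values in the range 0.3 to 60, the share that formed whole multiples of a library's step (within 0.02) was 61.8% to 66.7%, against 4% by chance. Whole reads were therefore not recovered, and no count model was fitted. Depth was estimated from those steps. Chi-square per gene between replicates was 2.94 to 59.3, so no library was taken as deposited again. In the knockdown table, 25 symbols turned into dates were restored from coordinates, and 3 further columns of sample values, whose names hold a different siRNA number and fit no sample, were not used.

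Genes with a mean of 10 or more entered limma 3.58.1 (R 4.3.3; lmFit, then eBayes with a trend on intensity). Tests used log2(value + 1) and were two-sided, with Benjamini-Hochberg adjustment over all genes tested and a threshold of 0.05. Fold changes on that scale understate the change of low genes. The difference of effects was fitted over all 12 libraries with 4 group means. The script was tested on simulated data. Other steps ran in Python 3.11.15 with matplotlib 3.10.9 for figures, numpy 2.4.6 and pandas 2.3.3.

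The members and gene lists were chosen with earlier results of these data known. Named were all 10 members, XPO1 as a check and, for each member, the gene of highest correlation. Of each pathway list, up to 3 called genes with the smallest p per comparison were named. NIPBL, TOP2B and CHTF18 with selinexor, CENPF, TH, CD14, CDH5 and KDR were named after their values were seen. The alternatives changed the pseudocount (0.5 and 5), the filter (none, or means of at least 50), the scaling (equal totals, or a 30% trimmed mean of log ratios) or the intensity trend (none), added a replicate block, or left out each replicate.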

Additional observations from a re-analysis of the deposited data

How the results depend on the processing

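Under 14 alternatives each, all 10 members kept their direction and their call with selinexor, and under 20 alternatives each, all 10 kept a more negative effect with selinexor than with XPO1 siRNA. With XPO1 siRNA, the 5 condensin genes and RAD21 kept theirs, with SMC2 between -0.20 and -0.09 and NCAPH between -0.65 and -0.55. STAG1, not called, turned to 0.0343 at equal totals. SMC1A, SMC3 and STAG2 lost their calls at equal totals, where values were -0.05, -0.02 and -0.03, and SMC1A and STAG2 also without the intensity trend, with limma adjusted p of 0.0744 and 0.0908. The cause was not tested. Members called lower with XPO1 siRNA numbered 6 at equal totals, where 20.7% of genes were called lower, against 9 as deposited, where 28.6% were. They numbered 7 without the trend and 8 to 9 with a replicate left out. Shares of all genes are not given for those last settings. Leaving out selinexor replicate 1 raised the genes called lower with selinexor to 6065, against 4774.

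Replicate numbers appear in every group, but same-numbered libraries did not deviate together (r from -0.10 to 0.12), so the numbers were not taken to pair samples. With a replicate block, 10 members were lower with selinexor and 9 with XPO1 siRNA, as without it, among 4680 and 4882 genes called lower. Only 1 of 6 treated libraries correlated best with its own number.

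Depth did not limit the members, whose lowest value rested on about 629 estimated reads. Limits are the single siRNA, unstated cultures, 3 libraries per group, and the small siRNA effects on SMC1A, SMC3, STAG1 and STAG2. Those effects were -0.14 to -0.06 (log2). Equal totals moved the all-gene median by a similar size, from 0.00 to 0.09.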
